A study of Zea mays with 6 samples.

Results

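The late benzoxazinoid genes of maize described here are Bx7, Bx10, Bx11, Bx12, Bx13 and Bx14, 6 of the 45953 features in the deposited count table. They were chosen by identifier, as the B73 v4 gene models assigned to these enzymes: Zm00001d049179 (Bx7), Zm00001d029353 (Bx10), Zm00001d029356 (Bx11), Zm00001d029359 (Bx12), Zm00001d007718 (Bx13) and Zm00001d004921 (Bx14). All 6 identifiers were in the table, and each had at least 1 count in some library. Leaf RNA was sequenced from seedlings 2 weeks old in 6 poly(A)-selected libraries. Of these, 3 were from PP2CKO, a line edited to knock out the protein phosphatase gene ZmPP2C45 in the inbred background KN5585, and 3 were from WT, the unedited inbred line KN5585. No other treatment is named in the labels for either line, and they do not say how many independent editing events the knockout represents. They also do not say whether the numbered libraries came from separate plants, so each p-value reflects the variation among these libraries alone, and part or all of that may be technical.

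Benzoxazinoids are indole-derived defence compounds that grasses store as glucosides and activate when tissue is chewed. In maize, the earlier enzymes build the glucoside DIBOA-Glc. After a hydroxylation of DIBOA-Glc, an O-methylation by BX7 gives DIMBOA-Glc, the abundant form in young maize leaves. The O-methyltransferases BX10, BX11 and BX12 convert DIMBOA-Glc to HDMBOA-Glc, a more reactive form whose production rises when caterpillars feed. The dioxygenase BX13 opens a side branch from DIMBOA-Glc, in which BX7 acts again and the O-methyltransferase BX14 performs a later methylation. The title of the series places ZmPP2C45 in the suppression of chemical defence against insect herbivores, and the comparison asks whether transcripts of these late steps differ when it is lost.

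Bx7 was 2.10-fold higher in the knockout than in WT, and it was the 1 member of the 6 that passed the low-count filter. The other 5 genes were sparse in leaves of both lines, with between 0 and 68 counts per library. Bx11 had most of its reads in PP2CKO, and Bx12 most of its reads in WT, but in each case a single library held at least 80% of them. Bx7 carried 3715 of the 3859 counts of the 6 genes, or 96.3%. These are shares of reads that are not corrected for gene length, so they do not rank the genes by transcript level.

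Bx7 encodes the O-methyltransferase that completes DIMBOA-Glc. Its level is given in CPM, which relates a gene's counts to the library total after TMM scaling, a step that aligns the libraries on the bulk of their genes. Bx7 stood at 50.0, 45.4 and 51.8 CPM in PP2CKO replicates 1, 2 and 3, from 780, 691 and 1042 counts, against 30.4, 23.0 and 16.8 CPM in WT replicates 1, 2 and 3, from 495, 399 and 308 counts. All 3 PP2CKO libraries were above all 3 WT libraries, as were those of 14.8% of all tested features. The means were 49.1 ± 3.34 CPM in PP2CKO libraries and 23.4 ± 6.82 CPM in WT libraries (SD, n = 3 each). With TMM scaling the PP2CKO libraries were close to each other, whereas the WT libraries were spread more widely, with replicate 1 highest and replicate 3 lowest. The contrast in spread was smaller with library size alone. Bx7 was then at 43.4, 42.35 and 50.8 CPM in PP2CKO replicates 1, 2 and 3, and at 30.2, 25.05 and 19.3 CPM in WT replicates 1, 2 and 3. The fitted log2 fold change of PP2CKO over WT was 1.07 ± 0.202 (SE), or 2.10-fold higher with a 95% interval of 1.55 to 2.84 (edgeR quasi-likelihood test over 21206 features, Benjamini-Hochberg adjusted p = 0.00919).

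**Figure D1:**
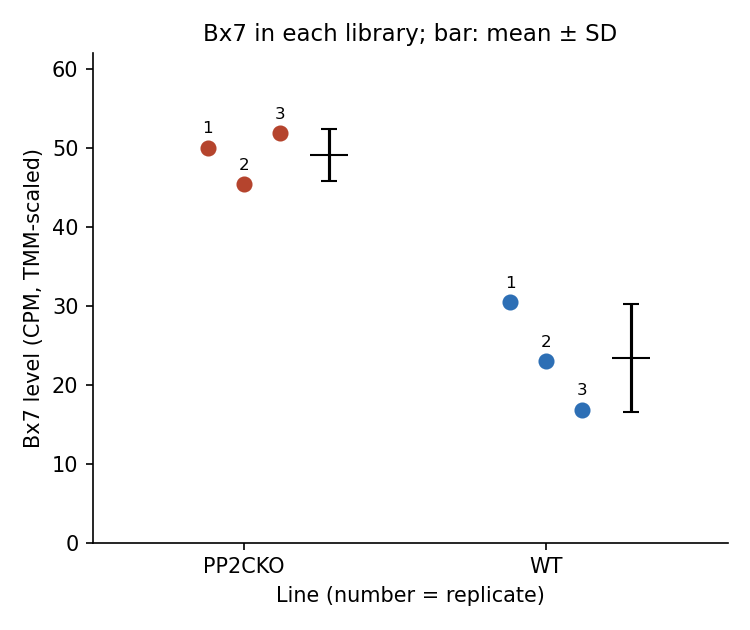
Bx7 level in CPM (vertical axis, TMM-scaled, starting at 0) in the 3 PP2CKO and the 3 WT libraries; points are libraries numbered by replicate, and black bars give the mean ± SD. The PP2CKO points lie between 45.4 and 51.8 CPM, all above the WT points at 16.8 to 30.4 CPM.

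Among the tested features 5.15% were called higher in PP2CKO and 2.08% were called lower, at an adjusted p below 0.05. That balance depended on the scaling, since the 1092 higher and 442 lower features became 680 higher and 1604 lower with library size alone. Without WT replicate 3 fewer features were called in both directions, 339 higher and 123 lower. Of the 6 late genes, 1 was called higher and 0 were called lower (edgeR, DESeq2 and limma voom alike). With Bx7 the 1 member tested in these fits, no other member could be called in either direction. The count therefore says nothing about the group as a whole. The Bx7 difference was of middling size among the increases, since 572 of the 1092 features called higher, or 52.4%, had a larger log2 fold change. Their median was 1.11, and the median over all tested features was -0.01. By p-value Bx7 ranked 358th of the 21206 features. In these bulk leaf libraries, a change in the cells that express a gene and a change in RNA per cell cannot be told apart.

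**Figure D2:**
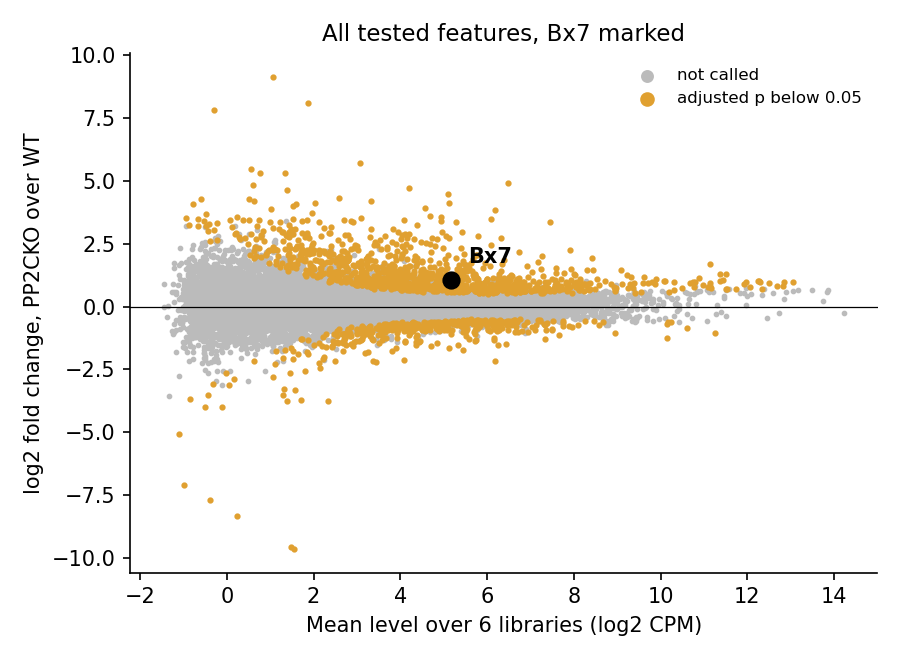
Each point is 1 of the 21206 tested features, with its mean level over the 6 libraries (horizontal axis, log2 CPM) and its log2 fold change of PP2CKO over WT (vertical axis); features with an adjusted p below 0.05 are orange, and Bx7 is the black point. Bx7, at a log2 fold change of 1.07, lies inside the band of called increases and close to their median of 1.11.

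The Bx7 difference was past the threshold in all 16 alternative settings, and the fitted log2 fold change ran from 0.87 to 1.30. Both ends came from leaving out a WT library. Without WT replicate 3, the lowest of its line, the log2 fold change was 0.87 (edgeR adjusted p = 0.0459), and without WT replicate 1, the highest of its line, it was 1.30 (edgeR adjusted p = 0.0123). Scaling by library size alone gave 0.87 (edgeR adjusted p = 0.0148). That scaling moved the median of all tested features to -0.23, and relative to this median the Bx7 difference was 1.10, against 1.08 with TMM scaling.

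**Figure D3:**
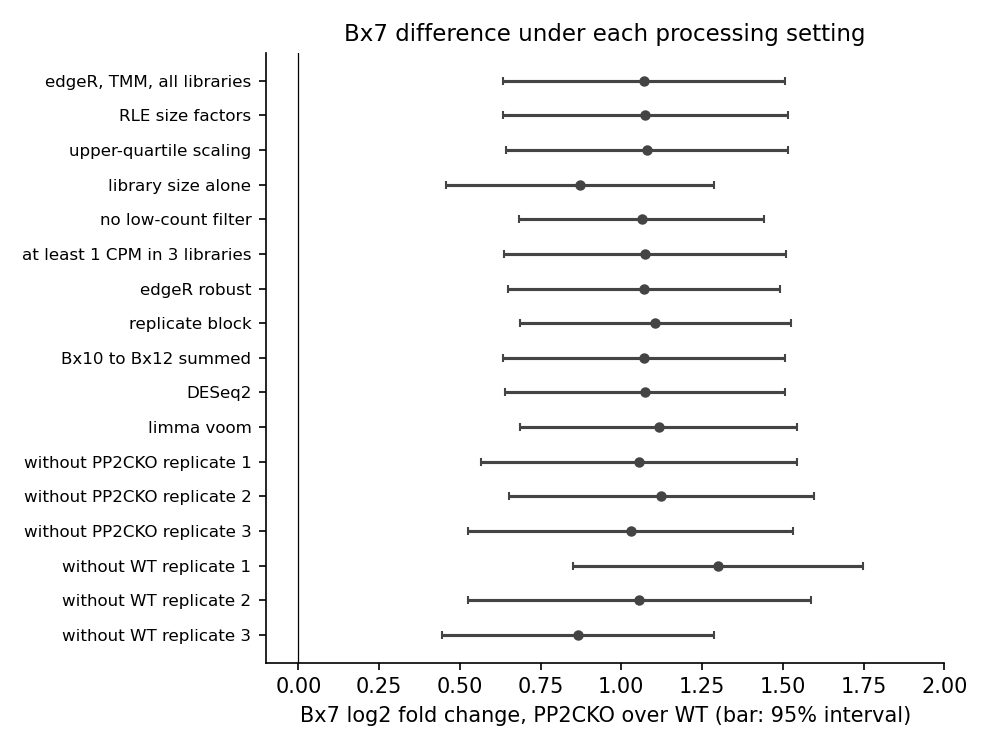
Bx7 log2 fold change of PP2CKO over WT (horizontal axis; points are estimates, bars are 95% intervals) under the edgeR fit with TMM scaling, in the top row, and 16 alternative settings. The estimates lie between 0.87 and 1.30, and the vertical line marks 0, which no interval reaches.

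By a rule that picks the tested features whose log2 CPM is most correlated with that of Bx7 over the 6 libraries, 2 identifiers stood first. Zm00001d032185 (Pearson r = 0.996) was at 6.80, 6.70 and 6.86 CPM in PP2CKO replicates 1, 2 and 3, and at 5.10, 4.37 and 3.44 CPM in WT replicates 1, 2 and 3. It had the ordering of Bx7, with a tight PP2CKO group and a WT group that was highest in replicate 1 and lowest in replicate 3, but its log2 fold change of 0.66 ± 0.266 (SE) did not pass the test (edgeR adjusted p = 0.159). Zm00001d011832 (Pearson r = 0.993) was at 1.35, 1.18 and 1.79 CPM in PP2CKO replicates 1, 2 and 3, and at 0.430, 0.288 and 0.0545 CPM in WT replicates 1, 2 and 3. Its log2 fold change of 2.48 ± 0.721 (SE) also missed the threshold (edgeR adjusted p = 0.0572). The correlation ran over the libraries of both lines together, so it includes the difference between the lines. An r of at least 0.9 with Bx7 was reached by 552 of 21205 other tested features, or 2.60%. Neither identifier is paired with a name here.

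Bx10, Bx11 and Bx12 encode the O-methyltransferases that turn DIMBOA-Glc into HDMBOA-Glc. The 3 genes are closely related copies with identifiers a few numbers apart, and how reads that match more than 1 copy were counted is not given in the sources used here. The split of reads between them is therefore uncertain, and their counts may be too low if such reads were left out. In some maize inbred lines a transposon insertion inactivates Bx12. Which allele KN5585 carries was not analysed here.

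Bx11 held most of the reads of this trio. It had 4, 68 and 11 counts in PP2CKO replicates 1, 2 and 3, and 2, 0 and 0 counts in WT replicates 1, 2 and 3. In CPM this was 0.257, 4.46 and 0.547 in PP2CKO and 0.123, 0 and 0 in WT, with means of 1.76 ± 2.35 for PP2CKO and 0.0410 ± 0.0710 for WT (SD over 3 libraries). The groups did not overlap, but the lowest PP2CKO library and the highest WT library were 4 counts against 2. Such a separation with PP2CKO above was seen in 12.2% of all features with at least 1 count, and the exact two-sided permutation test gave p = 0.1, the smallest that 3 against 3 libraries allow.

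PP2CKO replicate 2 held 80% of the Bx11 reads. Summed over the libraries of a line, and corrected for depth, the ratio of PP2CKO to WT was 42.4, with an exact (Clopper-Pearson) 95% counting interval of 11.4 to 356. It rests on 83 counts in PP2CKO against 2 in WT. Without PP2CKO replicate 2 the counts were 15 and 2, and the ratio was 10.9 (2.54 to 98.5). These intervals cover counting error only and leave out the spread between libraries.

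Bx11 did not pass the low-count filter, which asks for about 0.612 CPM in 3 libraries, a level it reached in 1. In a fit with no such filter, where 5.75% of 29079 features were called higher and 2.69% were called lower, its log2 fold change was 5.23 ± 1.14 SE (edgeR adjusted p = 0.00101). That call was lost without PP2CKO replicate 2, at a log2 fold change of 3.14 ± 1.90 SE (edgeR adjusted p = 0.431), and with limma voom in place of edgeR, at 4.14 ± 1.14 SE (limma adjusted p = 0.0632).

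Bx12 had the opposite distribution, from fewer reads. It had 1, 0 and 0 counts in PP2CKO replicates 1, 2 and 3, and 16, 0 and 1 counts in WT replicates 1, 2 and 3. WT replicate 1 held 88.9% of all Bx12 reads, and the lines overlapped because WT replicate 2 had none. The means were 0.0214 ± 0.0370 CPM in PP2CKO libraries and 0.346 ± 0.553 CPM in WT libraries (SD, n = 3 each; exact two-sided permutation p = 0.7). The depth-corrected ratio of PP2CKO to WT was 0.0601, with a 95% counting interval of 0.00144 to 0.383. Without WT replicate 1 there was 1 count in each line, so no ratio was left to give.

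Bx10 was at the edge of detection. It had 0, 4 and 2 counts in PP2CKO replicates 1, 2 and 3 and 0 in every WT library. A count of 0 allows up to 3 counts, or 0.164 to 0.184 CPM in a WT library and 0.149 to 0.197 CPM in a PP2CKO library. Against a floor of 3 counts over the 3 WT libraries together, the depth-corrected ratio of PP2CKO to WT was 2.04. That ratio takes the 6 PP2CKO counts of Bx10 as exact, so it is not a lower limit on the difference. In the fit with no low-count filter, the log2 fold change was 4.12 ± 2.38 SE (edgeR adjusted p = 0.347). Its interval of -0.66 to 8.90 included 0. Without PP2CKO replicate 2 the 2 remaining Bx10 counts were under the floor of 3 counts. The exact permutation test gave p = 0.4, the smallest possible for these tied values.

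The sum of Bx10, Bx11 and Bx12 does not depend on how the counted reads were split between the copies. Any reads left uncounted for matching more than 1 copy would be missing from the sum. It came to 5, 72 and 13 counts in PP2CKO replicates 1, 2 and 3, and to 18, 0 and 1 counts in WT replicates 1, 2 and 3. In CPM the sum averaged 1.90 ± 2.45 in PP2CKO libraries and 0.387 ± 0.623 in WT libraries (SD, n = 3 each). The lines overlapped, with WT replicate 1 above PP2CKO replicates 1 and 3, and the difference of 1.51 CPM was smaller than the spread among the PP2CKO libraries (exact two-sided permutation p = 0.5). Without PP2CKO replicate 2 the difference was 0.098 CPM. With the trio entered as 1 row in place of 3, edgeR gave a log2 fold change of 2.29 ± 1.18 SE (edgeR adjusted p = 0.266).

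The copy with the most reads was Bx11 in PP2CKO and Bx12 in WT. Bx11 took 83 of the 90 trio counts in PP2CKO, or 92.2% (exact 95% interval 84.6 to 96.8), and 2 of the 19 in WT, or 10.5% (1.30 to 33.1). Bx12 took 1.11% in PP2CKO (0.0281 to 6.04) and 89.5% in WT (66.9 to 98.7). The intervals treat pooled reads as independent and leave out the spread between libraries. PP2CKO replicate 2 held 72 of the 90 PP2CKO counts, and WT replicate 1 held 18 of the 19 WT counts. Within libraries Bx11 made up 80%, 94.4% and 84.6% in PP2CKO replicates 1, 2 and 3, against 11.1% in WT replicate 1 and 0% in WT replicate 3. The WT share is in effect that of replicate 1, since replicate 3 had a single count and replicate 2 had none and gave no share. Over the 5 libraries with a share, the exact two-sided permutation test gave p = 0.1 for Bx11 and for Bx12, the smallest possible, and p = 0.4 for Bx10 (Benjamini-Hochberg adjusted over the 3 shares, 0.15, 0.15 and 0.4).

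**Figure D4:**
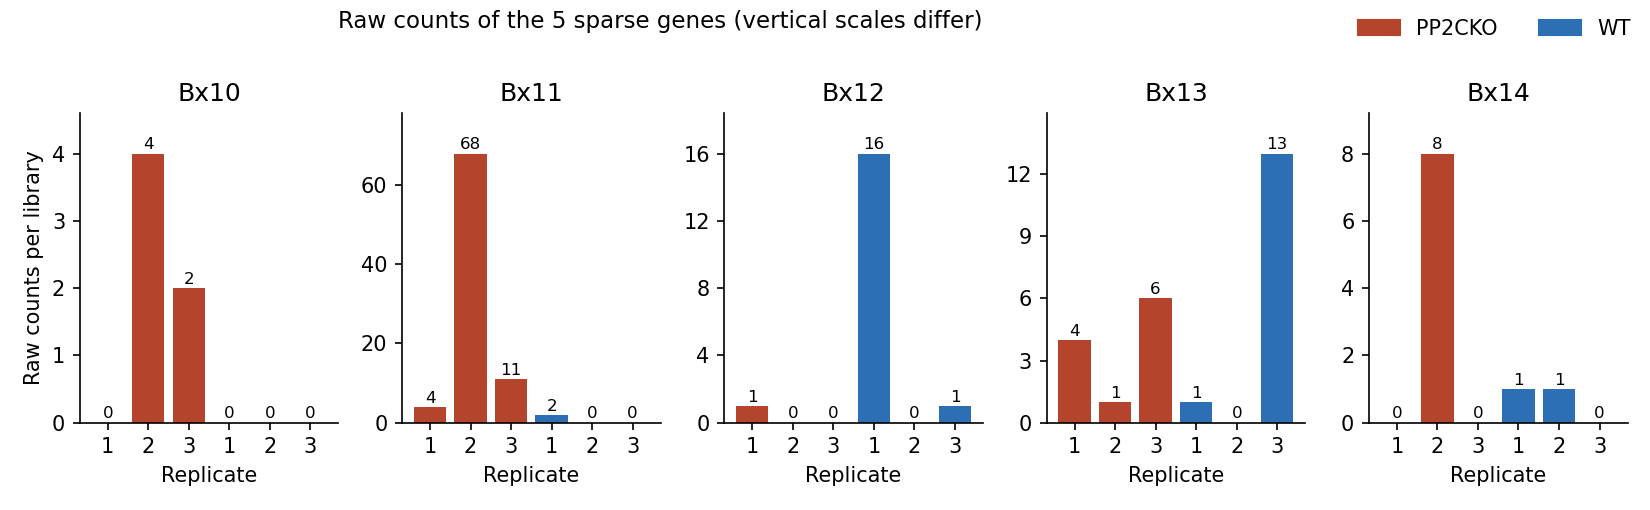
Raw counts (vertical axes, each with its own scale starting at 0) of Bx10, Bx11, Bx12, Bx13 and Bx14 in the 3 PP2CKO libraries (red) and the 3 WT libraries (blue), by replicate. Bx10, Bx11 and Bx14 each peak in PP2CKO replicate 2, at 4, 68 and 8 counts, Bx12 peaks in WT replicate 1 at 16 counts, and Bx13 in WT replicate 3 at 13 counts.

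Of the 4 identifier numbers between Bx10 and Bx12 other than that of Bx11, 3 carried a feature in the table. These held 2 counts in all, 1 in PP2CKO replicate 2 and 1 in WT replicate 1, both in Zm00001d029357. The features on either side of the stretch, looked at after the values were known, were expressed in every library. Zm00001d029352 had 2949 counts in PP2CKO and 2223 in WT (edgeR adjusted p = 0.144), and Zm00001d029360 had 74 and 49 (edgeR adjusted p = 0.565). Neither passed the test.

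Bx13 encodes the dioxygenase that opens the side branch from DIMBOA-Glc. It had 4, 1 and 6 counts in PP2CKO replicates 1, 2 and 3, and 1, 0 and 13 counts in WT replicates 1, 2 and 3. The lines overlapped, and the lowest and the highest library were both WT. The means were 0.207 ± 0.124 CPM in PP2CKO libraries and 0.257 ± 0.393 CPM in WT libraries (SD, n = 3 each; exact two-sided permutation p = 1), and the depth-corrected ratio was 0.802, with a 95% counting interval of 0.330 to 1.90. The direction was not stable. The difference of -0.0499 CPM became 0.0211 CPM without PP2CKO replicate 2 and 0.170 CPM without WT replicate 3, which held 52.0% of the reads. In the fit with no low-count filter, the log2 fold change was -0.31 with edgeR, 0.56 with a replicate block and 0.74 with limma voom, and none of these passed the test (adjusted p = 0.931, 0.915 and 0.772). Without WT replicate 3 the counts were 11 in PP2CKO and 1 in WT, a ratio of 7.27 (1.06 to 313).

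Bx14 encodes the O-methyltransferase of the later step in that branch, and it can also methylate DIMBOA-Glc. It had 0, 8 and 0 counts in PP2CKO replicates 1, 2 and 3, and 1, 1 and 0 counts in WT replicates 1, 2 and 3. All of its PP2CKO reads were in replicate 2, so the lines overlapped. The means were 0.175 ± 0.303 CPM in PP2CKO libraries and 0.0397 ± 0.0344 CPM in WT libraries (SD, n = 3 each; exact two-sided permutation p = 1). The depth-corrected ratio was 4.08 with a 95% counting interval of 0.815 to 39.5, which includes 1. Without PP2CKO replicate 2 the counts were 0 and 2, both under the floor. In the fit with no low-count filter, Bx10, Bx12, Bx13 and Bx14 were not called in either direction (edgeR adjusted p = 0.347, 0.274, 0.931 and 0.619).

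The sparse genes did not share their highest library with Bx7. Bx10, Bx11 and Bx14 were highest in PP2CKO replicate 2, which held 81 of the 109 PP2CKO counts of the 5 sparse genes, or 74.3%, while Bx7 was at its lowest PP2CKO level in that library. Bx12 was highest in WT replicate 1 and Bx13 in WT replicate 3, the WT libraries in which Bx7 was highest and lowest. Over the 30 combinations of sparse gene and library, 13 had 0 counts and 21 had 3 counts or fewer. Of the 30, 4 were above 10 counts: Bx11 in PP2CKO replicates 2 and 3, Bx12 in WT replicate 1 and Bx13 in WT replicate 3.

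Unevenness of this degree was uncommon but not confined to the late genes or to 1 library. Among the 3875 features with at least 10 counts that did not pass the low-count filter, 199, or 5.14%, had 80% or more of their counts in a single library, a bound chosen after the values of Bx11 and Bx14 were seen. The library in question was PP2CKO replicate 2 for 43 of the 199, PP2CKO replicate 1 for 45 and PP2CKO replicate 3 for 51. It was WT replicate 1 for 17, WT replicate 2 for 22 and WT replicate 3 for 21. The 3875 features were not matched to Bx11 in total counts, and 80% takes fewer reads at a total of 10 than at its 85. Features with high totals are among them only where too few libraries reached the level the filter asks for. The 5.14% is therefore not a like background for Bx11. The part of any single library's handling in the Bx11 and Bx12 values was not tested.

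**Figure D5:**
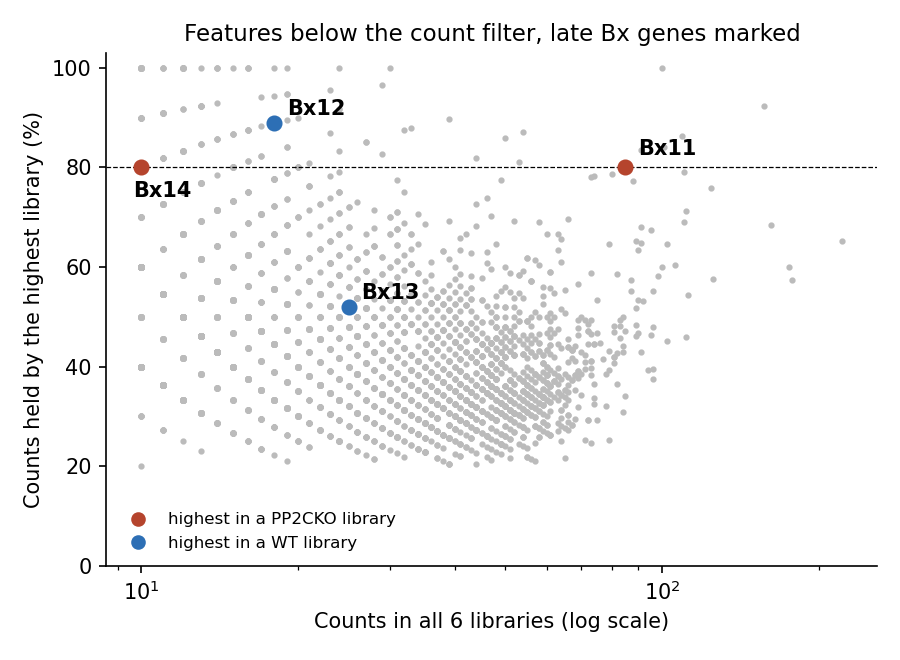
Features with at least 10 counts that did not pass the low-count filter, with their counts over all 6 libraries (horizontal axis, log scale) and the percentage held by the highest library (vertical axis); the dashed line marks 80%. Bx11 (85 counts) and Bx14 (10 counts) lie at 80%, Bx12 (18 counts) at 88.9% and Bx13 (25 counts) at 52.0%; red points peak in a PP2CKO library and blue points in a WT library, and Bx10, with 6 counts, is too low to be plotted.

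Summed over all 6 genes, the level was 50.6, 50.7 and 52.8 CPM in PP2CKO replicates 1, 2 and 3, and 31.7, 23.0 and 17.6 CPM in WT replicates 1, 2 and 3. The lines did not overlap, with means of 51.4 ± 1.23 CPM in PP2CKO libraries and 24.1 ± 7.11 CPM in WT libraries (SD, n = 3 each; exact two-sided permutation p = 0.1, the smallest possible). With library size alone the means were 47.7 ± 3.93 CPM in PP2CKO libraries and 25.6 ± 5.64 CPM in WT libraries (SD, n = 3 each). Bx7 made up nearly all of this sum. Without Bx7 the sum was 2.28 ± 2.64 CPM in PP2CKO libraries and 0.683 ± 0.590 CPM in WT libraries (SD, n = 3 each), which overlapped (exact two-sided permutation p = 0.5).

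The PP2CKO libraries held 16314657 to 20502449 counts and the WT libraries 15923668 to 16368195. Log2 CPM correlated across genes at 0.951 to 0.958 between PP2CKO libraries, 0.965 to 0.968 between WT libraries and 0.923 to 0.951 between the lines. The transcript of ZmPP2C45 and markers of leaf tissue were not analysed here, since no source used here pairs their names with identifiers, so neither the knockout label nor the tissue label was checked. For the 5 sparse genes, differences of a few counts were not detectable at this depth.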

How the data were processed

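The values are raw counts that the authors deposited for 6 leaf libraries, without normalization. Reads were trimmed of adaptors, filtered for quality and aligned to B73 v4 with STAR 2.4.0j, per the labels' protocols. The counting tool, annotation release, strand setting and treatment of multiply matching reads are not stated there. KN5585 reads were aligned to another inbred line's genome, so diverged genes may be undercounted in both lines. Gene names come from the identifiers that define the set. The RefSeq gene table (Zm-B73-REFERENCE-NAM-5.0) lists 3 of the 6 names, pairs 0 with these identifiers, and is of another build, so coordinates, sequences and a list of earlier pathway genes were not used here.

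Counts were tested with edgeR 4.0.16 (quasi-likelihood, genotype only, TMM scaling, filterByExpr with a minimum count of 10 and total of 15) in R 4.3.3, with Benjamini-Hochberg adjustment over all tested features and calls at an adjusted p below 0.05. The edgeR fit was tried on counts simulated from the features that passed the filter. That trial does not cover the fits without a filter, or the ratios and shares of pooled counts. DESeq2 1.42.0, limma 3.58.1 (voom), other scalings and filters, a replicate block and leaving out each library were alternatives. For correlations, log2 CPM took a prior count of 2. Named were all 6 members, the 2 features most like the member of highest CPM, and the identifiers between Bx10 and Bx12. Floors are 3 counts. Intervals are 95%. Those of fitted fold changes include the variation between libraries. Those of ratios and shares of pooled counts cover counting error only. They may be too narrow even for that, as reads without molecular identifiers are not independent molecules. The members, the tests and the alternatives were chosen with earlier results of these data known.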

Additional observations from a re-analysis of the deposited data

How the results depend on the processing

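Bx7 was called higher in PP2CKO in all 16 alternatives, with log2 fold changes of 0.87 to 1.30 and adjusted p from 5.15e-05 to 0.0459; leaving out 1 library gave 0.87 to 1.30. The count of members called higher was 1, and 2 with no low-count filter, which added Bx11; without each library it was 1 to 1, and the count called lower was 0 to 0. The unfiltered Bx11 value was 5.23, and its other settings were chosen after seeing the data: limma voom gave 4.14 (adjusted p = 0.0632), and leaving out 1 library gave 3.14 to 7.91, with the call lost without PP2CKO replicate 2 (adjusted p = 0.431); the cause was not tested. Without each library in turn, PP2CKO minus WT ran from 0.098 to 2.36 CPM for the sum of Bx10 to Bx12, from 23.0 to 31.0 CPM for all 6 genes, 0.0504 to 0.186 for Bx10, 0.366 to 2.53 for Bx11, -0.489 to -0.0058 for Bx12, -0.176 to 0.170 for Bx13 and -0.0402 to 0.229 for Bx14. Library size alone gave 22.1 CPM for all 6 genes, against 27.3 with TMM scaling, the cause being the scaling itself. A replicate block gave Bx7 a log2 fold change of 1.11 (edgeR adjusted p = 0.00481) and unfiltered Bx11 4.60 (edgeR adjusted p = 0.00669). The block changed no call among the 6 members. Over all tested features it gave 1323 called higher and 537 called lower, against 1092 and 442 without it. Libraries of equal number deviated from their line means with correlations of 0.0525, 0.0888 and 0.0847, below the 0.1 set for pairing, although every library correlated best with its own number. DESeq2 gave no adjusted p for unfiltered Bx10, Bx12 and Bx14. With 3 libraries a line and few counts, the lack of a call for a sparse gene does not show equal levels.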
